A study of Drosophila melanogaster with 4 samples.

Results

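The loci described here hold 10 Drosophila melanogaster genes that direct development and lie outside the Hox complexes. They are ara, caup and mirr, salm and salr, esg, wor and sna, dac, and wg. Their histone H3 lysine 27 monomethylation (H3K27me1) was read from ChIP-seq, the sequencing of immunoprecipitated chromatin. The material was instar 3 larvae of the Oregon-R wild-type strain, and the antibody a rabbit polyclonal from Millipore. The loci were taken as 5 fixed windows on release 5 of the genome, which together span 565 kb of chromosome arms 2L and 3L. The windows were chosen by their covered bases, regions and scores in these same lists, so every value for them is a description without a test. Replicate 1 had 6 of its 8209 enriched regions in the windows, replicate 2 had 5 of 6901, and a further list for the series as a whole, here the series-level list, had 7 of 12359. On 2L and 3L alone the lists held 2879, 2406 and 4205 regions in that order. The windows are a small part of these arms, which hold 47556 positions in 1 kb steps, so these counts alone do not show scarcity. The series has 2 ChIP samples of 1 group and 2 input samples, and input files were not analysed here. A background measured in input therefore cannot be given. The labels do not say that the ChIP replicates came from separate collections of larvae, and their spread may be only technical. All samples share strain, genotype and stage, and the labels name no tissue within the larva.

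Histone H3 lysine 27 can carry mono-, di- or trimethylation. In flies these can be placed by E(z), the enzyme of Polycomb repressive complex PRC2. The trimethylated form is bound by Polycomb, and genes for transcription factors and signals that pattern the embryo and the imaginal discs are its classic targets. In mammals the monomethylated form is found over the bodies of active genes. Drosophila genes of this kind often sit in broad intervals with few other genes, where enhancers lie far from the promoters.

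Each window was assigned to its genes as follows. The Iroquois window, 3L from 12580000 to 12710000, holds ara, caup and mirr, homeodomain transcription factors that pattern the dorsal eye and the notum. The spalt window, 2L from 11330000 to 11460000, holds salr and salm, zinc-finger transcription factors that act downstream of Dpp in wing patterning. The snail-family window, 2L from 15250000 to 15490000, holds wor, esg and sna, zinc-finger repressors of the Snail family. Of these, sna acts in the mesoderm, wor in neuroblasts, and esg in imaginal cells and intestinal stem cells. The dachshund window, 2L from 16455000 to 16495000, holds dac, a nuclear factor of eye and leg development. The wingless window, 2L from 7300000 to 7325000, holds wg, the secreted Wnt ligand. All 10 genes were found by symbol in RefSeq's gene table, which is on release 6 and served for order along the arm only. In that table caup lies next to ara, and mirr next to caup, among protein-coding genes. Likewise salm follows salr, wg is followed by Wnt6, and only CG4161 lies between wor and sna. Gene positions on release 5 were not used here, so the assignment of genes to windows was not checked, and regions are placed in a window and not on a promoter, exon or intron of a gene.

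H3K27me1 regions were scarce across these loci. In the windows together, 2.84% of bases were covered in replicate 1 and 2.21% in replicate 2, or 16.05 and 12.5 kb. The mean was 2.52% ± 0.45 for the windows, against 15.7% ± 2.2 for flanks of 100 kb on each side and 18.5% ± 2.5 for 2L and 3L (SD, n = 2). The series-level list covered 3.45% of the windows, against 21.9% of the flanks and 30.5% of the arms. In each of the 3 lists, 3 of the 5 windows held no region at all. These were the Iroquois, spalt and wingless windows, with ara, caup, mirr, salr, salm and wg. In larvae, which hold many cell types, fewer cells carrying the mark and less mark per cell cannot be told apart. A base outside every region fell short of a threshold that the sources used here do not state, so it need not lack the mark.

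**Figure D1:**
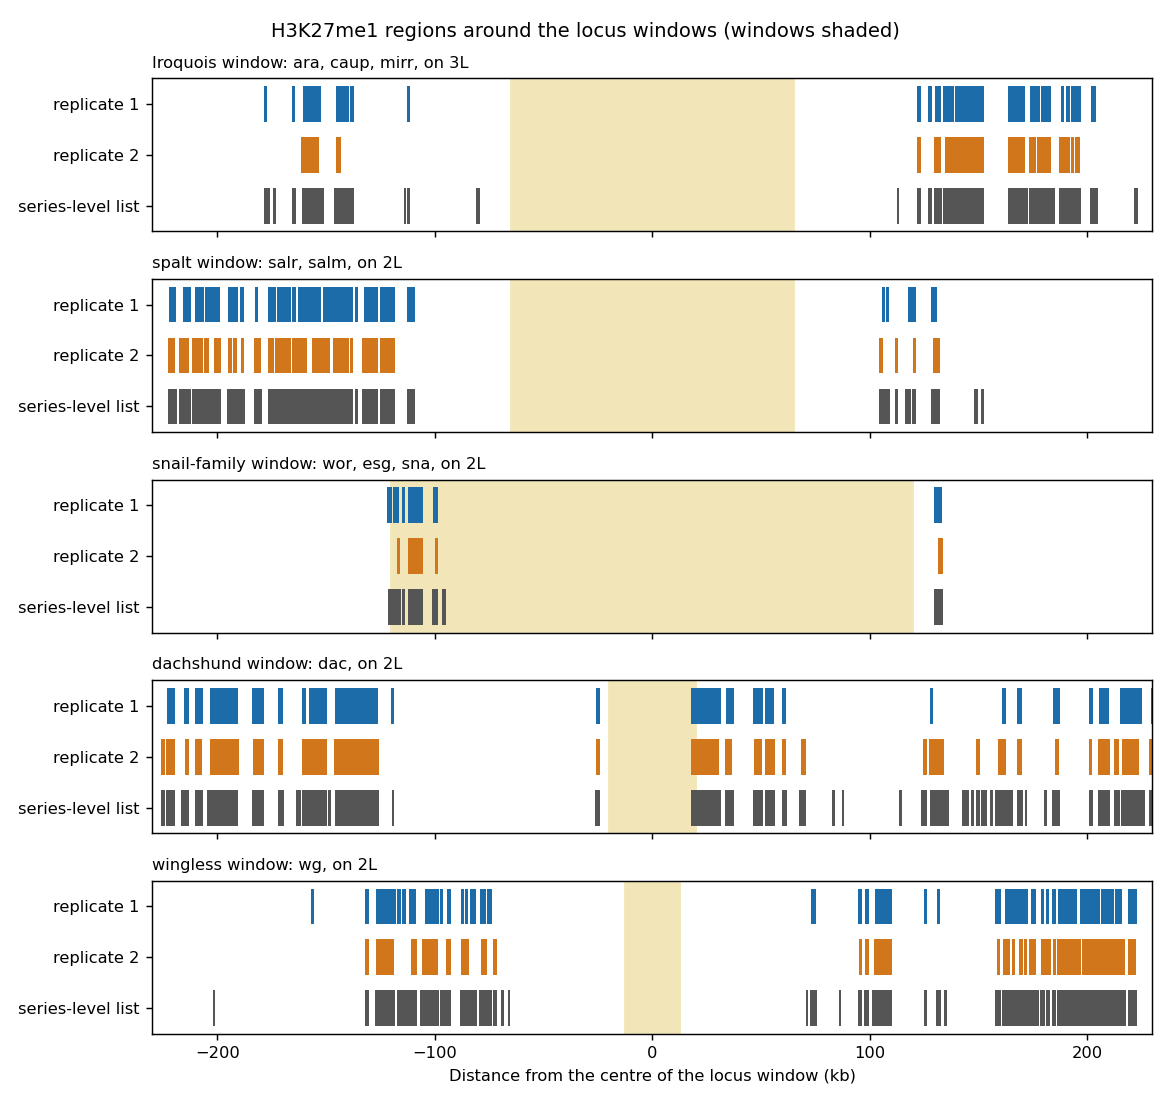
Enriched H3K27me1 regions (bars) in each of the 3 lists around the 5 locus windows (shaded), by distance from the centre of the window in kb. The Iroquois, spalt and wingless windows are empty in all lists, the regions of the snail-family window stand at 1 end, and the dachshund window ends inside a long region.

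The Iroquois window had no H3K27me1 region over its 130 kb in replicate 1, replicate 2 or the series-level list. Of 24414 windows of that length on 3L, in 1 kb steps, 3.61% had no region in replicate 1. The share was 6.97% for replicate 2, and 1.51% for the series-level list. Windows this empty were therefore uncommon on 3L. Neighbouring windows share most of their bases, so these shares are no p-values. Outside the locus, replicate 1 had 18 further windows without a region when none may share bases, replicate 2 had 26, and the series-level list 3. About 188 such windows fit on the arm.

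The empty stretch that holds ara, caup and mirr ran well past the window on both sides. It measured 233 kb in replicate 1, from 12533549 to 12766665, and 265 kb in replicate 2, from 12501640 to 12766571. Ranked by length among stretches between regions on 3L, it had rank 3 of 1597 in replicate 1 and rank 4 of 1292 in replicate 2. In the series-level list it measured 192 kb and had rank 2 of 2353. The median stretch on 3L was 3.36 kb in replicate 1 and 3.98 kb in replicate 2. The right-hand edges of the replicates lay 94 bp apart, and the left-hand edges 31909 bp apart. A region's score is the authors' enrichment value for it, whose scale is not stated. The region that ended the stretch in replicate 1 was 1401 bp wide with a score of 0.36. In replicate 1, 5.50% of the scores on 3L were no higher, and replicate 2 covered none of this region. The median score on 3L was 0.55 in both replicates. In the series-level list, regions of 1785 bp (score 0.29) and 1039 bp (score 0.38) closed in on the window from either side. Neither replicate had a region at the positions that set these edges.

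The flanks of the Iroquois window were covered about as much as the arm. The window had no covered base, and its left flank was covered at 18.7% in replicate 1 and 10.2% in replicate 2. The right flank was covered at 26.1% and 24.7%, and 3L as a whole at 21.4% and 17.4%. The window minus the mean of its flanks was -19.9 percentage points ± 3.5 (SD, n = 2). With flanks of 50 kb it was -0.70 points ± 0.99, since the first region stood 46.5 kb (replicate 1) and 78.4 kb (replicate 2) to the left, and 56.7 and 56.6 kb to the right. The widest region of the right flank spanned 13.4 kb in replicate 1, from 12784021 to 12797416, with a score of 0.69. In replicate 2 the same stretch was covered at 98.1% by 2 regions of 8557 and 9156 bp.

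The spalt window, with salr and salm, also held no H3K27me1 region in replicate 1, replicate 2 or the series-level list. On 2L, 5.62% of 130 kb windows had no region in replicate 1, against 8.00% for replicate 2 and 2.60% for the series-level list. These shares lay above those on 3L, and 2L was the less covered of the arms, with 19.0% covered in replicate 1 and 16.0% in replicate 2. The empty stretch around salr and salm measured 215 kb in replicate 1, from 11285807 to 11500727, and 223 kb in replicate 2, from 11276592 to 11499172. It had rank 5 of 1277 stretches on 2L in replicate 1, rank 8 of 1112 in replicate 2 and rank 5 of 1850 in the series-level list. In the series-level list it measured 213 kb, nearly its length in the replicates.

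The stretches beside salr and salm were unequal. The left flank had 44.9% of its bases covered in replicate 1 and 36.7% in replicate 2, the highest values of any flank of the 5 windows in each replicate. The right flank had 9.43% and 7.75%, below the arm in both replicates. The left flank held 8 regions in replicate 1 and 7 in replicate 2, with median scores of 0.64 in both, and the right flank 5 and 4, with median scores of 0.47 and 0.43. The median score on 2L was 0.55 in each replicate, so the median of the left flank stood above it and that of the right flank below it. The widest region on the left was 13986 bp in replicate 1, with a score of 0.78, and the series-level list joined it into a block of 39.5 kb. The window minus the mean of its flanks was -24.7 points ± 3.5 (SD, n = 2) and -4.94 ± 2.62 with flanks of 50 kb. The nearest region lay 44.2 and 53.4 kb to the left, and 40.7 and 39.2 kb to the right, in replicates 1 and 2.

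**Figure D2:**
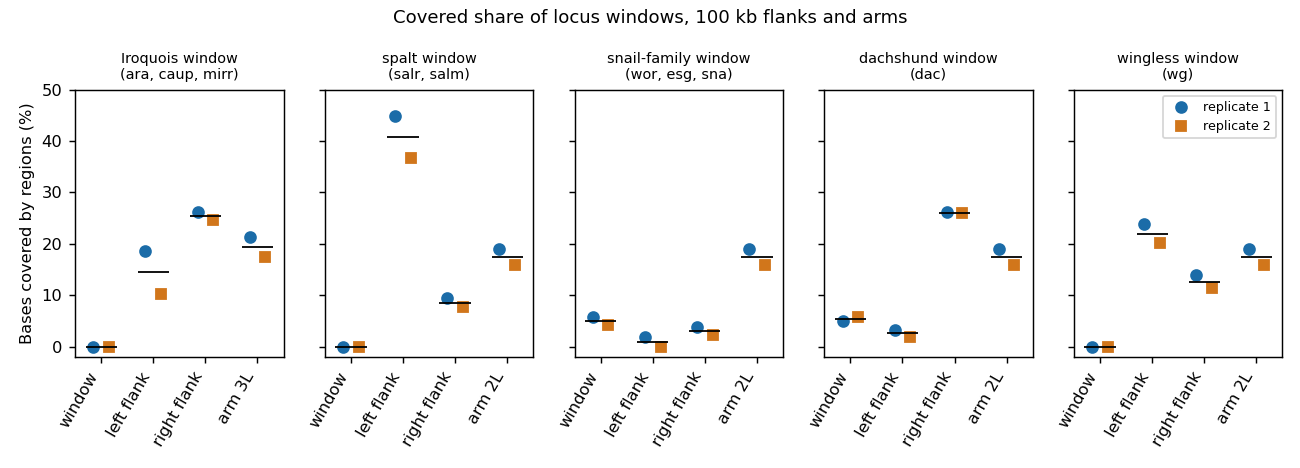
Percent of bases covered by H3K27me1 regions in each locus window, its left and right flanks of 100 kb, and its whole arm (points are replicates, lines their means). The Iroquois, spalt and wingless windows sit at 0 below their flanks and arm, and the flanks of the snail-family window lie below 4% in both replicates.

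The snail-family window held few H3K27me1 regions, and its flanks held fewer. Over its 240 kb, 5.85% of bases were covered in replicate 1 and 4.24% in replicate 2, with a mean of 5.05% ± 1.14 (SD, n = 2). The flanks had a mean of 1.99% ± 1.19 and 2L 17.5% ± 2.1. The window was thus covered 0.287 ± 0.030 times as much as the arm, and 3.06 points ± 0.05 more than its flanks. With flanks of 50 kb the difference was 1.07 points ± 1.24, within the spread between replicates. All covered bases of the window lay in a group at its left end, so the direction of this difference rests on where the window begins. A left-hand border moved inward was not measured. Windows covered at under 50% of the arm's share made up 23.2% of all 240 kb windows on 2L in replicate 1. They made up 27.3% for replicate 2 and 18.5% for the series-level list. The share covered no more than this window was 10.1%, 12.3% and 7.63% in the same order.

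What H3K27me1 the snail-family window had was gathered at its left end. In replicate 1 a group of 5 regions spanned 23.2 kb, from 15248164 to 15271317, and covered 15.9 kb of it. In replicate 2 a group of 4 regions spanned 19.03 kb, from 15252435 to 15271464, and covered 10.2 kb. The widest was 6928 bp in replicate 1, from 15257619 to 15264546, with a score of 0.74. Replicate 2 covered 99.9% of it with 2 regions of 3647 and 3434 bp, which scored 0.67 and 0.57. The highest score in replicate 1, 0.743, belonged to a region of 3103 bp, from 15250504 to 15253606, of which replicate 2 covered 37.8%. The other 3 regions of replicate 1 were 2093, 1394 and 2368 bp wide and scored 0.51, 0.39 and 0.54. Replicate 2 covered the last of them at 63.0% and had no base in the first or the second. The other regions of replicate 2 were 1469 and 1638 bp wide, with scores of 0.38 and 0.43. Median scores in the window, 0.54 in replicate 1 and 0.50 in replicate 2, were within 0.05 of the median of 2L.

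From that group to the end of the window no region was found. The empty part inside the window measured 219 kb in both replicates, or 91.1% of its length in each. The whole stretch was 228 kb in replicate 1, from 15271318 to 15499550, and 229.7 kb in replicate 2, from 15271465 to 15501184. Its left-hand edges differed by 147 bp between the replicates and its right-hand edges by 1634 bp. It had rank 4 of 1277 on 2L in replicate 1, rank 7 of 1112 in replicate 2 and, at 224 kb, rank 2 of 1850 in the series-level list. On the other side of the group a further stretch of 192 kb in replicate 1 and 189 kb in replicate 2 had no region, with ranks 8 and 11. It was 131 kb in the series-level list. The group therefore stood between long empty stretches on both sides in all 3 lists. The first region beyond the window on the right, from 15499551 to 15503370, was 3820 bp wide with a score of 0.46 in replicate 1. In replicate 2 its counterpart was 2294 bp wide with a score of 0.67.

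**Figure D3:**
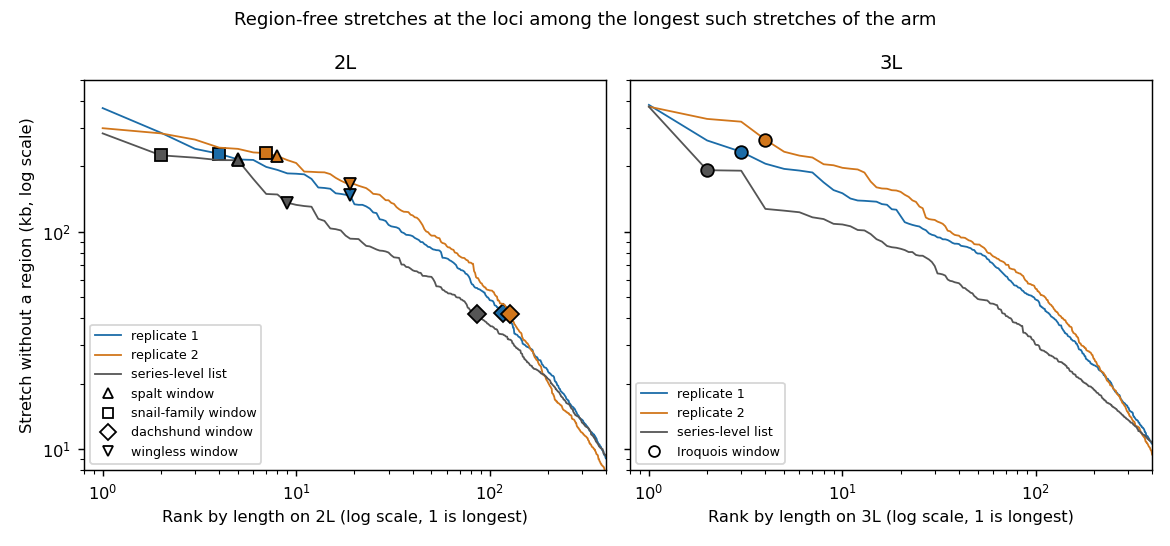
Length in kb of stretches without an H3K27me1 region against their rank on 2L and 3L (log axes), with the stretch that holds most of each locus window marked. The spalt, snail-family and Iroquois stretches have ranks of 2 to 8 in the lists, wingless 9 to 19 and dachshund 86 to 128.

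The dachshund window, with dac as its only named gene, ended inside a long H3K27me1 region. It had 4.99% of its 40 kb covered in replicate 1 and 5.69% in replicate 2, with a mean of 5.34% ± 0.49. Its flanks had a mean of 14.4% ± 0.5, and 2L 17.5% ± 2.1 (SD, n = 2). All covered bases belonged to 1 region that crosses the right-hand border, and 1998 bp of it in replicate 1 and 2276 bp in replicate 2 lay inside the window. That region was 13510 bp wide in replicate 1, from 16493003 to 16506512, and 13014 bp in replicate 2, from 16492725 to 16505738. Its scores were 0.91 and 0.88, above the median of 0.55 on 2L. Among all regions of 2L it stood at percentiles 98.5 and 98.3 by width, and at 96.5 and 98.2 by score.

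The left-hand border of that region differed by 278 bp between the replicates. To its left, the empty stretch over the window measured 42.1 and 41.9 kb in the replicates, and 41.7 kb in the series-level list. Its ranks on 2L were 117 of 1277, 128 of 1112 and 86 of 1850. Of the stretches on 2L, 90.8%, 88.5% and 95.4% were shorter in the same order. Windows of 40 kb covered at under 50% of the arm's share made up 46.5%, 50.2% and 39.4% of the windows on 2L in the same order. Windows covered no more than the one at dac made up 37.4%, 45.9% and 26.3%. The flanks were unequal, with 3.33% and 1.88% covered on the left and 26.1% in both replicates on the right. The right flank held 4 further regions in replicate 1, the strongest of them 3672 bp wide, from 16508829 to 16512500, with a score of 0.97. Replicate 2 covered 71.2% of it, with a region of 3007 bp that scored 0.73. The window minus its flanks was -9.01 points ± 1.01, and -22.4 ± 0.9 with flanks of 50 kb and -22.7 ± 1.3 with flanks of 200 kb. When the window was extended by 10 kb on both sides, its covered share was 23.4% ± 0.2 and the difference turned to 11.5 ± 0.5, so the direction at dac rests on where the window ends.

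**Figure D4:**
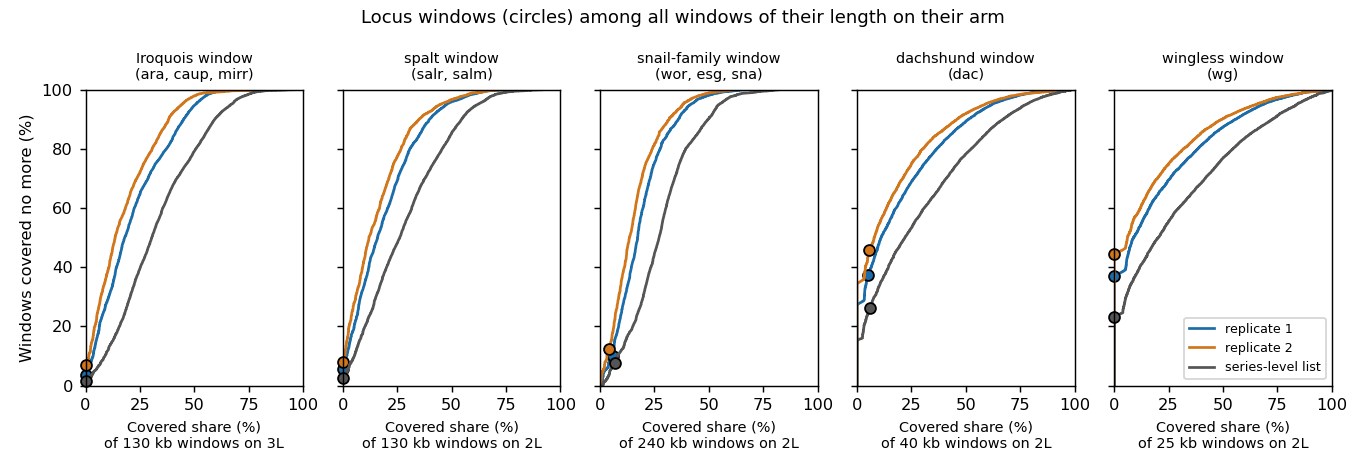
Share of all windows of the locus window's length on its arm (vertical, percent) that are covered no more than the value on the horizontal axis (percent of bases), for each list, with the locus window as a circle. The Iroquois, spalt and snail-family windows sit at 12.3% of windows or lower, and the dachshund and wingless windows between 23.2% and 45.9%.

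The wingless window, with the gene of the Wnt ligand, had no H3K27me1 region in replicate 1, replicate 2 or the series-level list. It is only 25 kb long, and 36.9% of windows of that length on 2L had no region in replicate 1. The share was 44.3% for replicate 2 and 23.2% for the series-level list. Empty windows of this length were thus common on 2L. The empty stretch around wg was longer than the window, at 147 kb in replicate 1, from 7238683 to 7385572, and 166 kb in replicate 2, from 7241051 to 7407372. It had rank 19 on 2L in both replicates and rank 9, at 136 kb, in the series-level list. Its left-hand edges differed by 2368 bp and its right-hand edges by 21800 bp. A region of 2402 bp with a score of 0.55, from 7385573 to 7387974, ended the stretch in replicate 1, and replicate 2 covered none of it.

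Beyond the empty stretch, wg had marked DNA on both sides. The left flank was covered at 23.8% and 20.2%, and the right flank at 13.9% and 11.5%, in replicates 1 and 2. The window minus its flanks was -17.3 points ± 2.1 (SD, n = 2). With flanks of 50 kb it was 0, as no region of either replicate lay within 50 kb of the window. The strongest neighbours were a region of 6721 bp on the left, from 7207726 to 7214446, with a score of 0.85 in replicate 1, and a region of 7673 bp on the right, from 7415062 to 7422734, with a score of 0.93. Replicate 2 covered 95.2% and 99.7% of these. Its own regions there were 7407 bp with a score of 0.73 and 8118 bp with a score of 0.68.

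Set side by side, 4 of the 5 windows lay in or mostly in a stretch of 100 kb or more without a region, in each of the 3 lists. The dachshund window was the exception. In the Iroquois, spalt and snail-family windows the empty part inside the window was itself longer than 100 kb. For these the count only restates the covered bases by which the windows were chosen, and it is no added support. Positions inside such stretches made up 20.4% of 2L and 3L in replicate 1, against 29.3% for replicate 2 and 9.63% for the series-level list. These shares are over single positions, while a window was counted by the stretch that held most of it, so the measures are unlike. Replicate 1 had 61 such stretches on these arms, replicate 2 had 83, and the series-level list 30. The length of 100 kb was set after the stretches were seen. The series-level list covered 28.3% of 2L and 32.6% of 3L, more than either replicate. It had no region in the Iroquois, spalt and wingless windows. The windows were chosen with that list in view, so its empty windows add no support.

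Regions that bordered the long empty stretches mostly scored at or below the median of their arm, though few edges were counted. At the 4 long stretches, the replicate regions at the edges were 1401 to 4655 bp wide and scored 0.36 to 0.67. Of these 16 regions, 13 scored at or below the median of their arm, and 6 lay under percentile 15. By definition the median has as many regions of the arm below as above it, and about 15% lie under percentile 15. Each edge was counted once per replicate, and edges of other stretches were not measured. The left-hand edge of the spalt stretch stood above the median in both replicates, at percentiles 65.5 and 76.2. The right-hand edge of the snail-family stretch stood at percentile 23.2 in replicate 1 and 83.7 in replicate 2. At dac the region on the right was long and high, and the one on the left was 1964 bp (score 0.47) in replicate 1 and 1883 bp (score 0.47) in replicate 2. Blocks of 10 kb or more lay outside the other windows. How far other positions of the arms lie from such a block was not measured, so these distances are not called long or short. In replicate 1 the nearest on either side lay 74.0 kb from the Iroquois window, 72.6 kb from the spalt window, 239 kb from the snail-family window and 149 kb from the wingless window. In replicate 2 the corresponding distances were 1192, 1002, 782 and 174 kb. These distances depend on how a list divides a covered stretch into regions, as at the right flank of the Iroquois window.

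The replicates overlapped within the windows where they had regions. In the snail-family window they shared 9586 of 14652 bases found in either, a Jaccard index of 65.4%, and in the dachshund window 1998 of 2276 bases, or 87.8%. The index for the whole of 2L was 58.7%. In the snail-family window 3 of 5 regions of replicate 1 and 4 of 4 of replicate 2 overlapped one of the other replicate by at least 1 bp. When 50% of each region had to overlap, 4 of these 9 regions were shared. With so few regions, these values cannot be set apart from the arm. Over 2 replicates, the smallest two-sided p of an exact sign-flip test is 0.5, and no window was tested.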

How the data were processed

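H3K27me1 ChIP-seq of 2 larval replicates was analysed from 3 deposited lists of regions on FlyBase release 5, per the file headers. The submitters' processing notes name Bowtie 0.12.7 without its role. How regions were called, at what threshold, with what use of input, and how the series-level list was built is not given in the sources used here. Each region carries an enrichment score computed by the authors. The deposited files do not state its scale, so differences and ranks are given and no fold. Depth is unknown. The series-level list also holds 3 regions named as depleted, which were left out, and 0 of them lay in the windows or flanks.

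The members, windows and measures were chosen with earlier results of these data known. All 10 genes are named, with the widest and highest-scoring regions of each window. Covered share is bases inside regions over length, for the window, flanks of 100 kb and the arm. All windows of the same length were scanned in 1 kb steps. Stretches lie between neighbouring regions of 1 list. Unplaceable sequence was not assessed. The interval calculations were tested on simulated data. Alternatives were a score cut, joined regions, another overlap rule, other flanks, borders and steps, the series-level list, and each replicate alone. Python 3.11.15, numpy 2.4.6, pandas 2.3.3 and matplotlib 3.10.9 were used.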

Additional observations from a re-analysis of the deposited data

How the results depend on the processing

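The empty Iroquois, spalt and wingless windows were also empty in the series-level list. The windows were chosen with that list in view, so this tests nothing. Extending these windows by 10 kb could not add a region and tests nothing there, since no region of either replicate lay that near. Leaving out either of 2 replicates moves a mean by less than its SD by construction and tests nothing. 1 value reversed, that of dac, whose window minus flanks became 11.5 points when the window was extended. That extension took in more of the region at its right-hand border.

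With regions at or above the median score, the share of windows covered no more was 13.6% (Iroquois), 16.0% (spalt), 21.96% (snail-family), 56.6% (dachshund) and 59.1% (wingless). For the empty Iroquois, spalt and wingless windows the rise follows from the cut, since fewer regions leave more empty windows. The difference from the flanks was then -18.8 points for spalt, 2.99 for snail-family, -6.13 for dachshund and -11.4 for wingless. The snail-family window had 3.56% covered, a longest stretch of 225 kb, a median score of 0.68 and a Jaccard index of 67.9%, and the dachshund window was covered 0.48 times as much as the arm. With regions joined, the snail-family difference was 3.11 points and its Jaccard index 64.4%. When 50% of each region had to overlap, 44.4% of its regions were shared, against 77.8% at 1 bp.

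In the series-level list the differences from the flanks were -26.95 (Iroquois), -33.2 (spalt), 4.34 (snail-family), -12.8 (dachshund) and -27.96 points (wingless). The shares of windows covered no more were 1.51%, 2.60%, 7.63%, 26.3% and 23.2% in that order. The snail-family window had 7.16% covered, 0.253 times the arm, with a longest stretch of 215 kb and a median score of 0.37. The dachshund window was covered 0.206 times as much as the arm, with a score of 0.86.

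With windows extended, differences were -23.9 (Iroquois), -29.2 (spalt), 3.68 (snail-family) and -20.3 points (wingless). Longest stretches grew by construction to 150.001 kb (Iroquois and spalt), 228 kb (snail-family), 42.02 kb (dachshund) and 45.001 kb (wingless). Shares of windows covered no more were 4.71% (spalt), 69.4% (dachshund) and 28.2% (wingless). The dachshund window then had 23.4% covered, 1.35 times the arm, and a median score of 0.68. Flanks of 50 kb gave -0.70 (Iroquois), -4.94 (spalt), 1.07 (snail-family), -22.4 (dachshund) and 0 points (wingless). Flanks of 200 kb gave 2.51 (snail-family), -22.7 (dachshund) and -23.3 (wingless). Except as stated, the cause of these changes was not tested. No paired analysis was possible because the values used here come from the ChIP replicates alone, which form 1 group. With depth unknown, how far it limits the detection of regions at these loci cannot be given.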
